A study of Sus scrofa with 8 samples.

Results

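The insulin-like growth factor (IGF) axis was followed in longissimus dorsi, a back muscle, through 7 listed genes: the ligands IGF1 and IGF2, the receptors IGF1R and IGF2R, and the binding proteins IGFBP2, IGFBP3 and IGFBP5. Members were the probe sets whose platform annotation gave exactly 1 gene symbol equal to a listed gene, which found 21 of the 24123 probe sets on the array and 6 of the 7 genes. IGFBP3 had no such probe set and was passed over. IGF2 had 13 probe sets, IGF1 had 3, IGF1R had 2, and IGF2R, IGFBP2 and IGFBP5 had 1 each. Total RNA of 4 Korean native pigs aged 7 months and 4 Yorkshire pigs aged 6 months was hybridised to 1 one-colour Affymetrix array per replicate, from muscle taken at the seventh to ninth ribs. The labels give the pigs the same rearing conditions and name no treatment. Their stated aim was to find genes expressed differently between the breeds. Breed and age cannot be told apart, and neither sex nor litter is given in the labels.

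IGF1 and IGF2 are small secreted hormones related to insulin that promote the growth and differentiation of muscle cells. Both signal through IGF1R, a receptor tyrosine kinase that feeds the PI3K, AKT and mTOR pathway and the MAP kinase pathway, whereas IGF2R, also the receptor for mannose 6-phosphate, carries IGF2 to the lysosome. The binding proteins hold IGFs in blood and tissue and set how much ligand reaches the receptors. The liver is the main source of circulating IGF1, while muscle makes both ligands locally.

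All 8 arrays carried strong muscle signal. The 8 measured muscle fibre markers were above the negative controls on every array, with 14914 for the myosin gene MYH2 as the lowest single value, while of 4 liver genes APOA1 was above them on all 8 arrays (477 to 1317), ALB on 4, TTR on 2 and APOH on 0. For other cell types the summed signals of the marker lists overlapped between breeds in each list. Fibroblast and matrix markers, for example, summed to 12365 to 21137 in Korean native pigs and 17497 to 27757 in Yorkshire pigs. Fewer cells of a type and less RNA per cell cannot be told apart in such samples. The median signal per array was 135.8 to 185.3. Spiked hybridisation controls were bright on replicates 1 and 3 of both breeds (13.13 to 13.36 log2 units) and dim on replicates 2 and 4 (12.06 to 12.54), and the log2 ratio of 3' to 5' housekeeping signal spanned 1.41 to 3.37 in the bright group and 0.88 to 1.21 in the dim group.

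Signals are linear array units. Over the 8 arrays the 23 negative control probe sets reached 147.3 at most. Their 95th percentile was 91.5, and signals at or below it are called near background. By this measure 8 of the 21 probe sets were above background on all 8 arrays: 6 of IGF2 and the single probe sets of IGF2R and IGFBP5. No probe set of IGF1, IGF1R or IGFBP2 was. Probe sets differ in how strongly they bind their target, so the signal of one gene was not set against that of another.

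**Figure D1:**
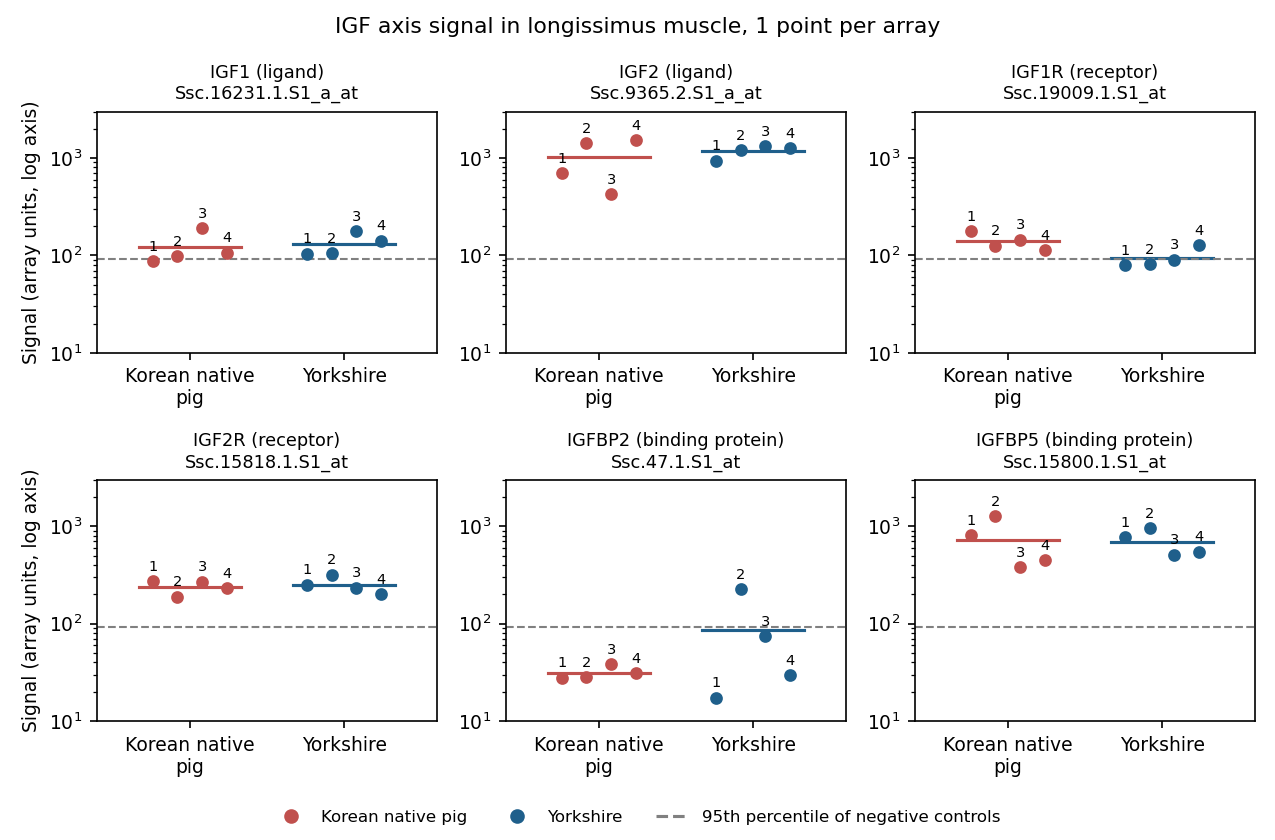
Signal (array units, log axis) of 1 probe set for each of 6 IGF axis genes on 8 arrays; points are arrays with their replicate number, bars are breed means, and the dashed line is the 95th percentile of the negative controls (91.5). IGF2, IGF2R and IGFBP5 lie above the line on every array, IGF1 and IGF1R lie close to it, and IGFBP2 lies below it on 7 of 8 arrays; the breeds overlap in every panel.

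None of the 5 genes with a tested probe set (IGF1, IGF2, IGF1R, IGF2R and IGFBP5) passed the test between breeds, and IGFBP2 and IGFBP3 were not tested. Differences below are Korean native pig minus Yorkshire in log2(signal + 32), which understates changes of dim probe sets. After the dimmest 40% of all probe sets were left out, 13 of the 21 members were tested. By limma, 0 of these 13 had an adjusted p under 0.05, as did 0 of all 14399 probe sets tested (0%). Before adjustment, 0 of 13 members lay under 0.05, where the share over all probe sets was 3.96%. The breeds overlapped in all 13, while 2.56% of all probe sets tested had no overlap. The 95% confidence intervals reached 0.49 to 1.24 log2 units to each side. Of the differences, 10 were below 0 and 3 above, with a median of -0.11 where the median of all probe sets tested was 0.00 (0.00472). Over all probe sets tested 50.7% were above 0. IGF2 alone supplied 8 of the 13 probe sets, 6 of them below 0, so the 13 are not separate genes. By gene, 4 were below 0 and 1 above.

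**Figure D2:**
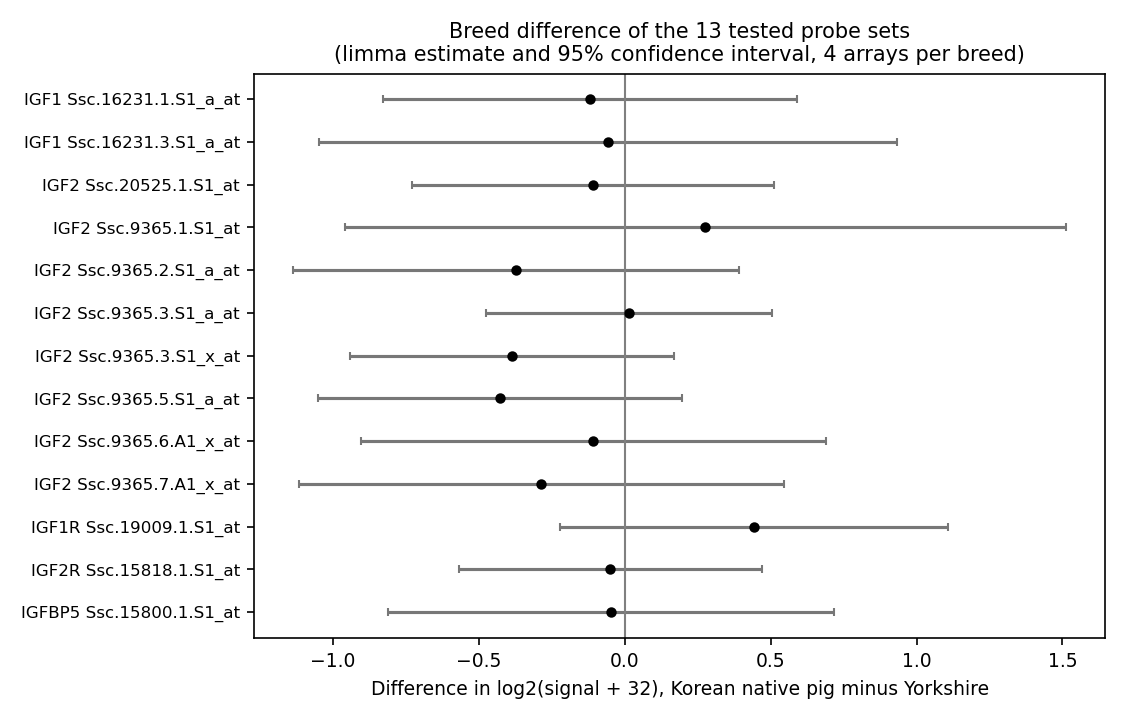
Difference in log2(signal + 32), Korean native pig minus Yorkshire, for the 13 tested probe sets; points are limma estimates and bars 95% confidence intervals, from 4 arrays per breed. Every interval includes 0, with estimates from -0.43 for an IGF2 probe set to 0.44 for IGF1R.

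Among the ligands, IGF1 had 3 probe sets on the array, 0 of them above background on all 8 arrays. IGF2 had 13, of which 6 were. Its brightest probe set, Ssc.9365.2.S1_a_at, had signals of 699, 1426, 423 and 1518 in Korean native pigs 1 to 4 and of 942, 1204, 1329 and 1259 in Yorkshire pigs 1 to 4. The Korean native pigs held both the 2 highest and the 2 lowest values, and the Yorkshire values lay between them. The means were 1017 ± 539 and 1184 ± 169 (SD, n = 4). The difference was -0.37 (SE 0.35, 95% interval -1.14 to 0.39; limma adjusted p = 0.999), and -0.029 without Korean native pig 3.

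No IGF2 probe set passed the test between breeds. Of the 8 tested, 6 differences were below 0 and 2 above, with a median of -0.20, and limma adjusted p was 0.999 for each. The largest in size was -0.43 (SE 0.29, 95% interval -1.05 to 0.19) for Ssc.9365.5.S1_a_at, or -0.19 without Korean native pig 1. It was -0.11 without Korean native pig 1 and Yorkshire 3, the 2 arrays of highest 3' to 5' ratio. The signals of this probe set were 167, 433, 267 and 397 in Korean native pigs and 368, 345, 492 and 463 in Yorkshire pigs. Korean native pigs 1 and 3 were the low arrays here, as in the brightest probe set, and the other 2 lay within the Yorkshire range.

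Within cluster 9365, which holds most IGF2 probe sets, Ssc.9365.3.S1_x_at and Ssc.9365.3.S1_a_at also share the next number of their names (9365.3). Their differences were not tested against each other. The first had 536, 633, 304 and 630.2 in Korean native pigs and 657, 784, 529 and 748 in Yorkshire pigs, a difference of -0.39 (95% interval -0.94 to 0.17), or -0.16 without Korean native pig 3. The second had 431, 667, 642 and 713 against 588, 772, 489.8 and 569, a difference of 0.01 (95% interval -0.48 to 0.50). Korean native pig 3 was the lowest array in the first, but in the second it lay above Korean native pig 1 and Yorkshire 1, 3 and 4. In this maker's naming, the ending _x_at marks probe sets whose probes can also bind other transcripts, and _a_at those whose probes match several transcripts of the same gene.

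Probe set Ssc.20525.1.S1_at, from a separate cluster, had 1086, 805, 498 and 814 in Korean native pigs and 651, 617, 1256 and 965 in Yorkshire pigs, a difference of -0.11 (95% interval -0.73 to 0.51). Its highest array was Yorkshire 3 and its lowest Korean native pig 3. Probe set Ssc.9365.6.A1_x_at, also above background throughout, ranged from 113 to 304, with a difference of -0.11. Ssc.9365.7.A1_x_at and Ssc.9365.1.S1_at were each above background on 6 arrays, with differences of -0.29 and 0.28. The latter ranged from 8.13 in Yorkshire 2 to 245 in Korean native pig 3.

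The 5 untested IGF2 probe sets lay at or near background. Ssc.9365.6.S1_x_at was near background on all 8 arrays, at 29.7 to 88.0. Ssc.9365.4.S1_a_at was above it only in Yorkshire 4, at 152, and Ssc.9365.5.A1_at only in Korean native pig 1, at 164. In Ssc.9365.5.A1_at the Korean native pigs had 164, 78.7, 64.7 and 55.6 and the Yorkshire pigs 28.8, 26.1, 73.6 and 32.6, so the breeds overlapped at Yorkshire 3. All 4 Yorkshire values were near background, and no fold is given. Ssc.9365.6.A1_a_at and Ssc.9365.5.S1_at were above background on 4 and 3 arrays.

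**Figure D3:**
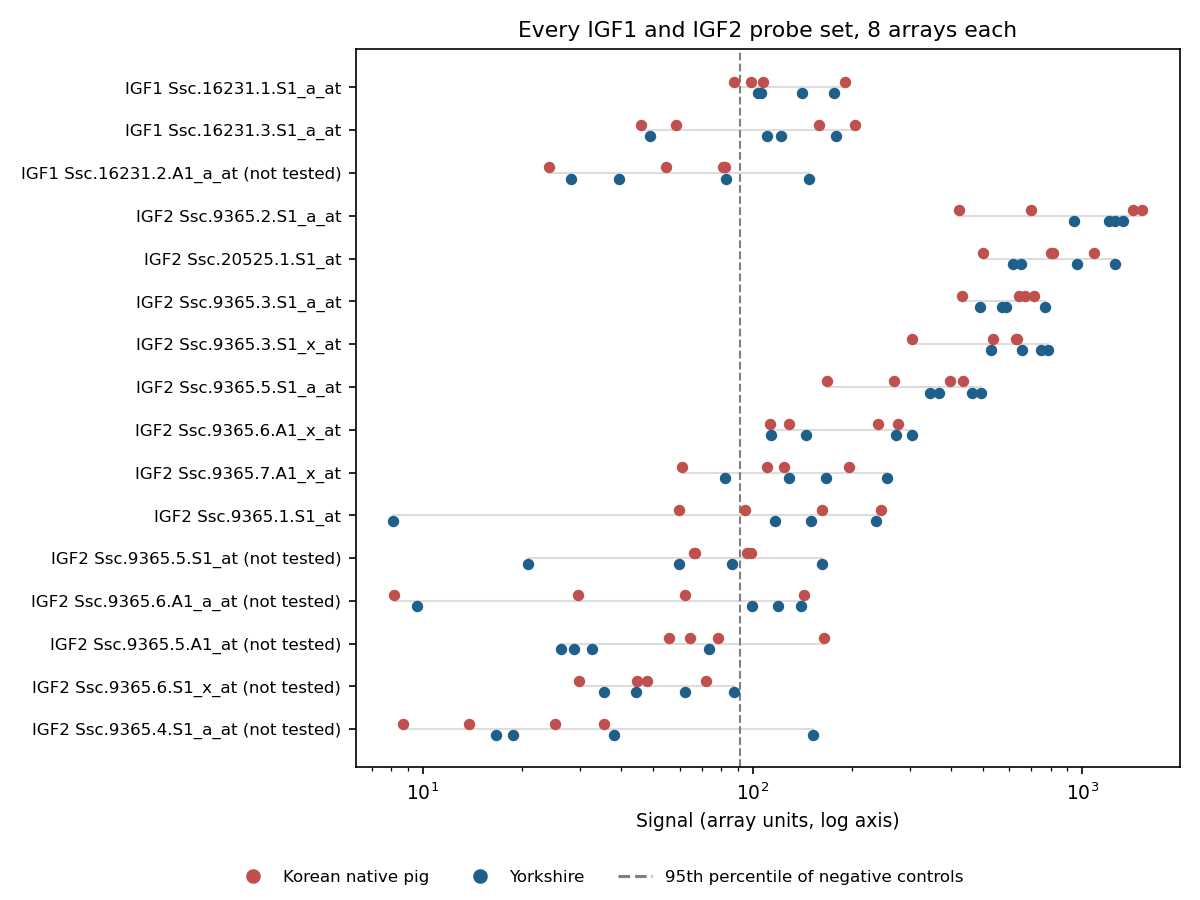
Signal (array units, log axis) of the 3 IGF1 and 13 IGF2 probe sets, each with 8 arrays coloured by breed; the dashed line is the 95th percentile of the negative controls (91.5). The breeds overlap in every row, 6 IGF2 probe sets lie wholly above the line, and 1 lies wholly below it.

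IGF1 was measured close to background. Its representative probe set, Ssc.16231.1.S1_a_at, had 87.5, 98.8, 191 and 107 in Korean native pigs and 104, 106, 176 and 141 in Yorkshire pigs. Replicate 3 was the highest array of each breed, and Korean native pig 1 was near background. The means were 121 ± 47.2 and 132 ± 34.4 (SD, n = 4), a difference of -0.12 (SE 0.33, 95% interval -0.83 to 0.59; limma adjusted p = 0.999).

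A second IGF1 probe set, Ssc.16231.3.S1_a_at, had 45.7, 204, 58.5 and 159 in Korean native pigs and 48.7, 179, 110.2 and 122 in Yorkshire pigs. Its difference was -0.06 (95% interval -1.05 to 0.93; limma adjusted p = 0.999). Replicates 2 and 4 were the higher arrays in both breeds. The remaining one, Ssc.16231.2.A1_a_at, was above background only in Yorkshire 3, at 149, and was not tested. Over the 8 arrays the tested pair of IGF1 probe sets had a Pearson r of -0.12 (exact permutation p = 0.748, adjusted 0.901 over the 29 within-gene pairs; rho = 0.02, exact permutation p = 0.977, adjusted 0.977). Without Korean native pig 3 and Yorkshire 3 this r was 0.29.

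Among the receptors, IGF1R did not pass the test, and its reading lay close to background. Probe set Ssc.19009.1.S1_at had 177, 125, 145 and 114 in Korean native pigs and 79.9, 81.5, 90.7 and 127 in Yorkshire pigs. All 4 Korean native pigs were above background and 3 of the 4 Yorkshire pigs were not, but Yorkshire 4 lay above Korean native pigs 2 and 4. Only Korean native pig 1 was above the highest negative control value, 147.3. The Yorkshire mean was itself under the filter level of 98.6, so the probe set entered the test through the Korean native pigs, and the size of the difference rests on a breed read mostly near background. The means were 140.2 ± 27.6 and 94.9 ± 22.2 (SD, n = 4), a difference of 0.44 (SE 0.30, 95% interval -0.22 to 1.11; limma adjusted p = 0.999). The other IGF1R probe set, Ssc.16058.1.S1_at, had 123, 59.7, 68.4 and 122 in Korean native pigs and 103, 109, 21.9 and 106 in Yorkshire pigs. It was above background on 5 arrays and was left out of the test by its low signal. It showed no common shift of the Korean native pigs: 2 of them were near background and 2 above all Yorkshire arrays.

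IGF2R, the clearing receptor for IGF2, was above background on every array. Its signals were 274, 188, 269 and 233 in Korean native pigs and 251, 318, 234 and 202 in Yorkshire pigs. The Yorkshire range from 202 to 318 covered 3 of the 4 Korean native pigs. The means were 241 ± 39.4 and 251 ± 49.1 (SD, n = 4), a difference of -0.05 (SE 0.24, 95% interval -0.57 to 0.47; limma adjusted p = 0.999).

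Of the binding proteins, IGFBP5, which differentiating muscle cells secrete and which binds to the matrix, had 813, 1262, 382 and 449.9 in Korean native pigs and 769, 960.2, 509.7 and 546 in Yorkshire pigs. In both breeds replicates 1 and 2 were high and 3 and 4 low, without overlap. This split was chosen after the values were seen, and its share over all probe sets was not computed. The breed means of 727 ± 404 and 696 ± 210.0 (SD, n = 4) were close. The breed difference was -0.05 (SE 0.35, 95% interval -0.81 to 0.72; limma adjusted p = 0.999). Whether a replicate number marks a shared litter or day is not said in the labels. The limma test of the replicate number beside breed, run after this pattern was seen, gave IGFBP5 an adjusted p of 0.559. In that test 0 of the 13 members passed, where 0.0139% of all probe sets did, and 1 lay under 0.05 before adjustment, where the share over all probe sets was 7.13%.

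IGFBP2, a binding protein abundant in fetal tissues, was near background in 7 of 8 arrays. It had 27.9, 28.1, 38.6 and 31.1 in Korean native pigs and 17.4, 225, 74.3 and 29.4 in Yorkshire pigs. Yorkshire 2 alone was above background, so the transcript was not detectable in the other arrays at this signal, and it was not tested. In the RefSeq gene table of the Sscrofa11.1 assembly IGFBP2 and IGFBP5 are direct neighbours, as are IGF2 and the insulin gene INS and, away from them, IGFBP3 and IGFBP1.

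The members were also compared between arrays with bright and with dim hybridisation controls. IGF1 probe set Ssc.16231.3.S1_a_at was at 45.7 to 110.2 on the 4 bright arrays and at 122 to 204 on the 4 dim ones, without overlap. It was the only one of the 13 tested members without overlap, where the share over all probe sets was 6.74%. The difference, dim minus bright with breed in the model, was 1.04 (95% interval 0.28 to 1.81; limma adjusted p = 0.328). For IGF2 the brightest probe set was at 423 to 1329 on bright and 1204 to 1518 on dim arrays, a difference of 0.76 (95% interval 0.15 to 1.37; limma adjusted p = 0.361), and Ssc.9365.3.S1_x_at was at 304 to 657 and 630.2 to 784, a difference of 0.48 (limma adjusted p = 0.433). These were the 3 of 13 members under 0.05 before adjustment, where the share over all probe sets was 11.5%, and 0 of 13 passed, as did 0% of all probe sets. The 3' to 5' ratios given above moved with the same arrays, and their part in these differences was not tested. This comparison was also chosen after the values were seen.

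**Figure D4:**
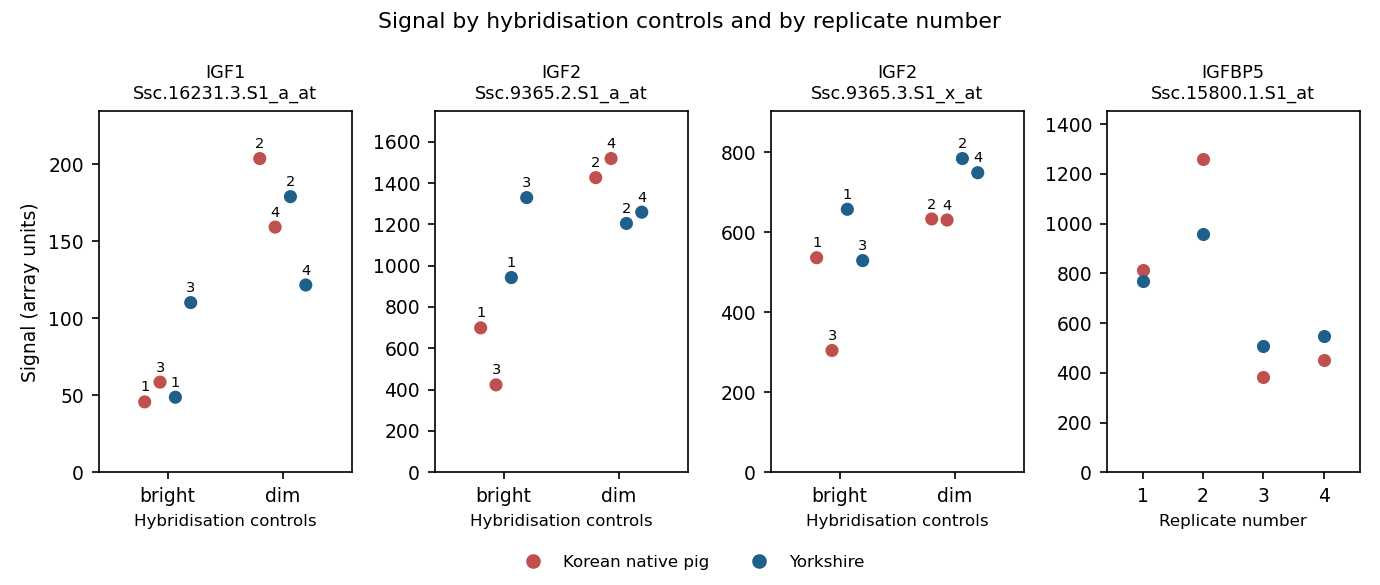
Signal (array units, axes from 0) of IGF1 Ssc.16231.3.S1_a_at, IGF2 Ssc.9365.2.S1_a_at and IGF2 Ssc.9365.3.S1_x_at by brightness of the hybridisation controls, and of IGFBP5 by replicate number; points are arrays coloured by breed. The IGF1 probe set does not overlap between bright (45.7 to 110.2) and dim arrays (122 to 204), and IGFBP5 is at 769 to 1262 in replicates 1 and 2 and at 382 to 546 in replicates 3 and 4 of both breeds.

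The breeds were also compared within each kind of array, 2 arrays against 2. Among bright arrays the brightest IGF2 probe set differed by -0.998 and among dim arrays by 0.25, and Ssc.9365.5.S1_a_at by -0.91 and 0.05. IGF2 Ssc.9365.6.A1_x_at went the other way, by 0.85 among bright and -1.07 among dim arrays. IGF1R Ssc.19009.1.S1_at differed by 0.71 and 0.17. No member passed in either (smallest limma adjusted p of any member under any setting = 0.964). Not all tested members are named here, and others differed little, such as IGF2 Ssc.9365.3.S1_a_at at -0.03 and 0.05. Whether a breed difference changed with the kind of array was not tested.

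Across animals no pair of members was correlated past the threshold. Over the 10 pairs of the 5 genes with a tested probe set, 0 passed an adjusted p of 0.05 by the exact permutation test of Pearson's r, and 1 lay under 0.05 before adjustment. The representative IGF1 probe set and IGFBP5 had a Pearson r of -0.73 over 8 arrays (exact permutation p = 0.0470, adjusted 0.470) and a Spearman rho of -0.81 (exact permutation p = 0.0218, adjusted 0.218). The other tested IGF1 probe set, whose r with the representative one was -0.12, was not set against IGFBP5. With each breed centred r was -0.75, with bright and dim arrays centred it was -0.70, and without Korean native pig 3 and Yorkshire 3, the arrays farthest from the median of IGF1, it was -0.51. Bright and dim arrays number 4 each, too few for a correlation within them. The remaining 9 pairs had r from -0.48 to 0.32, the last for IGF2 and IGFBP5.

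Probe sets annotated to IGF2 differed in how they tracked each other. Among 28 pairs of the 8 tested, r had a median of 0.07 and a range of -0.70 to 0.80, and 0 of the 29 within-gene pairs of IGF1 and IGF2 passed after adjustment. Ssc.9365.2.S1_a_at and Ssc.9365.3.S1_x_at had the highest r, 0.80 (exact permutation p = 0.0341, adjusted 0.390; rho = 0.21, exact permutation p = 0.619, adjusted 0.920). That relation rested on Korean native pigs 1 and 3, without which r was -0.28. Ssc.9365.1.S1_at and Ssc.9365.7.A1_x_at, both dim, had an r of 0.79 (exact permutation p = 0.0167, adjusted 0.390; rho = 0.86, exact permutation p = 0.0107, adjusted 0.311), or 0.77 without Korean native pig 4 and Yorkshire 2. Ssc.20525.1.S1_at and Ssc.9365.3.S1_a_at ran opposite to each other, at -0.70 (exact permutation p = 0.0537, adjusted 0.390; rho = -0.69, exact permutation p = 0.0694, adjusted 0.671), or -0.75 without Korean native pig 3 and Yorkshire 3.

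For the 3 members above background on every array, the genes of most similar pattern were found by Pearson r over the 8 arrays among 5326 other genes. These values describe the arrays, since the highest of so many r is high in any data. For IGF2 they were MUT, an enzyme of propionate breakdown, at 0.95 (rho 0.90) and DCAF11 at 0.91 (rho 0.79). For IGF2R they were the hyaluronan synthase HAS3 at 0.95 (rho 0.98) and the desaturase SCD5 at 0.91 (rho 0.93), both of which reached below background, with lowest signals of 59.8 and 42.7. For IGFBP5 they were the mitochondrial ribosomal protein gene MRPL33 at 0.95 (rho 0.93) and ARL1 at 0.95 (rho 0.95).

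Beyond the members, 75 further genes of the pathway were listed, from growth hormone input to the kinases below the receptor, and 28 had a tested probe set. By limma 0 of the 28 passed in either direction, as did 0% of the 5331 genes tested. Before adjustment 1 lay under 0.05, where the share over all genes was 3.43%. Of the 28, 14 were above and 14 below 0, with a median of 0.00 (0.00447), beside -0.00 (-0.00255) over all genes.

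The 1 gene was EIF4E, which binds the cap of messenger RNA in translation and acts below mTOR. It had 544, 752, 517 and 458 in Korean native pigs and 1077, 927, 659 and 743 in Yorkshire pigs. Korean native pig 2 lay within the Yorkshire range and the other 3 below it. The means were 568 ± 128 and 852 ± 188 (SD, n = 4), a difference of -0.56 (SE 0.23, 95% interval -1.05 to -0.06; limma adjusted p = 0.999). The kinase gene AKT2 was at -0.21, or -0.12 without Yorkshire 4, and the median of the 10 tested genes of the PI3K, AKT and mTOR list was 0.01, with 5 above and 5 below 0.

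Of 6 carriers and proteases of IGFs 5 were below 0, where 2685 of all 5331 genes tested were, and 0 passed. Their median was -0.35. IGFBP1, a further binding protein, had the largest difference, -0.80 (95% interval -1.67 to 0.06; limma adjusted p = 0.999). Its signals were 69.0, 74.9, 265 and 99.5 in Korean native pigs and 259, 244, 296 and 117 in Yorkshire pigs. Korean native pigs 1 and 2 were near background, and Korean native pig 3 lay within the Yorkshire range. PAPPA, a metalloprotease that cleaves IGF binding proteins, was at -0.42, with 143 to 293 in Korean native pigs and 182 to 491 in Yorkshire pigs. It was at -0.18 without Yorkshire 3, its highest array, and at -0.27 without Korean native pig 4.

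All 4 tested genes of growth hormone input were above 0, where the share over all genes was 49.6%. Their median was 0.11, and 0 passed. The growth hormone receptor gene GHR was at 0.25, or -0.08 without Korean native pig 3, whose 1358 was the highest signal against 372 to 728 on the other 7 arrays. STAT5A, a transcription factor activated by that receptor, was at 0.13, with a second probe set at 0.26. Of 6 receptor adaptors 3 were above and 3 below 0 (median -0.03). The docking protein gene GAB1 was at 0.29 and PTPN1, a phosphatase that acts on insulin and IGF receptors, at -0.22, or -0.15 without Korean native pig 2. In the MAP kinase arm MAP2K2 was at -0.21, with a second probe set at -0.10, and MAPK3 at 0.11. MAP2K2 was at -0.015 without Yorkshire 4, its highest array, and at -0.047 without Korean native pig 3. All these differences had a limma adjusted p of 0.999.

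**Figure D5:**
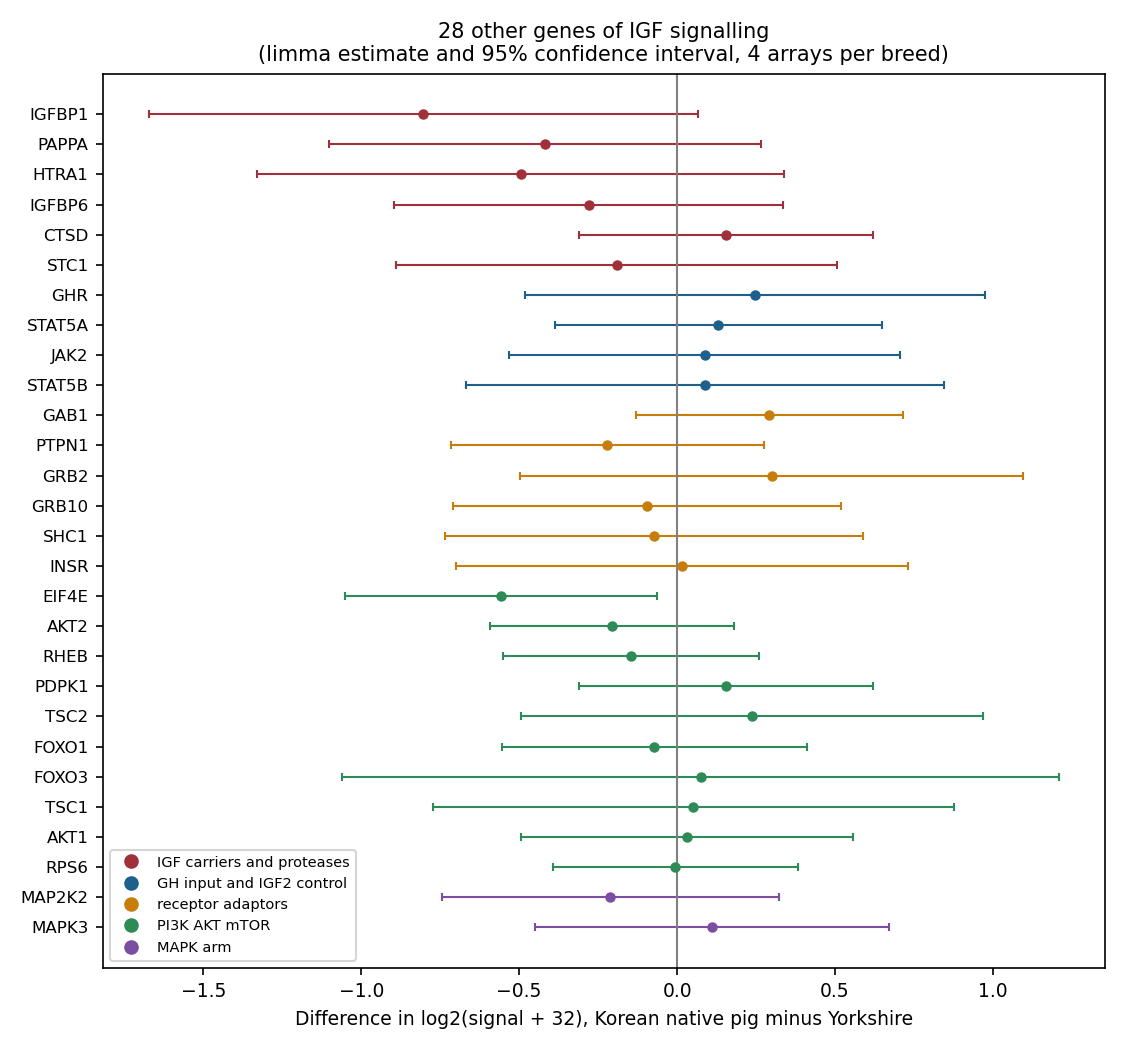
Difference in log2(signal + 32), Korean native pig minus Yorkshire, for 28 further genes of IGF signalling coloured by list; points are limma estimates and bars 95% confidence intervals, from 4 arrays per breed. Intervals include 0 for all but EIF4E (-1.05 to -0.06), whose adjusted p was 0.999.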

How the data were processed

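The authors deposited 1 intensity value, on a linear scale, for each probe set of each array. The labels' protocols give Trizol extraction and biotin labelling, and the submitters' processing notes name GCOS 1.3. The sources used here give no summarisation method, scaling target or filter. Each array's mean signal, trimmed of its top and bottom 2%, was 500.1 to 500.2, which is a per-array scaling, so a difference between breeds is relative to the rest of the array. Of 24123 probe sets, 10099 had 1 gene symbol in GEO's platform annotation, which can be old, 198 had several and 13826 had none.

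Values were taken as log2(signal + 32). The 124 control probe sets and the dimmest 40% of the rest by mean log2 (signal near 98.6) were left out, leaving 14399 probe sets. These were fitted with limma 3.58.1 in R 4.3.3 (intensity trend, 8 arrays, no covariates) and adjusted by the Benjamini-Hochberg method. The script was tested on simulated data with independent noise and added differences larger than any among the members. That test does not show how well differences as small as theirs are found. Precision is limited by the array number, with a median standard error of 0.283. A gene was its tested probe set of highest mean signal (5331 genes). Named were every member, the 2 genes of smallest p in each pathway list, any that passed, and the 2 genes closest in pattern to each member above background throughout. Members and lists were chosen with earlier results of these data known. Permutation tests were exact and two-sided. Replicates are biological per the labels, which describe the animals no further.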

Additional observations from a re-analysis of the deposited data

Results flagged for a closer look

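In 98 groups of 4 arrays (49 probe sets of members and pathway genes in each breed), 5 had a highest or lowest array set apart from the other 3 by more than 0.829 of the group's range on the log2(signal + 32) scale. Chance flags about 5% of groups. The IGF1R probe set Ssc.16058.1.S1_at was at 21.9 in Yorkshire 3, against 103 to 109 in the other Yorkshire pigs. JAK2, a kinase bound to the growth hormone receptor, was at 139 in Korean native pig 3, against 278 to 288, and at 156 in Yorkshire 4, against 239.6 to 257. The adaptor gene GRB2 was at 200.4 in Korean native pig 2, against 519 to 609. GRB10, an adaptor that restrains IGF signalling, was at 6176 in Korean native pig 3, against 2688 to 2821.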

How the results depend on the processing

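Each of 20 other settings of the fit left 0 members past the threshold, and 0 pathway genes passed in any of their 21 settings. These were pseudocounts of 16 and 64, no filter or a filter on 4 arrays above background, quantile normalisation, arrays centred on their median, no intensity trend, the replicate number or the hybridisation controls as a block, bright or dim arrays alone, leaving out the 2 arrays of highest 3' to 5' ratio or any single array, and, for pathway genes, the mean over probe sets. Over all probe sets 0 passed in each, except that 1 passed with the replicate block (NR4A3, which is no member and is named after its value was seen; log2 difference -2.79, smallest limma adjusted p = 0.00943). The numbers were not taken as a pairing, since the labels do not give one. The deviations of same-numbered arrays correlated at -0.04, 0.31, 0.10 and 0.05. Korean native pig 1 was closest to Yorkshire 3 (0.36), and these 2 arrays had the highest 3' to 5' ratios. The hybridisation controls were bright on replicates 1 and 3 and dim on 2 and 4 in both breeds. IGFBP5 was higher in replicates 1 and 2 than in 3 and 4, a split picked after its values were seen. Its limma adjusted p for the replicate number was 0.559. The count of correlated member pairs was 0 in each of its alternatives.

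Of 260 member differences recomputed, 222 kept their sign and 38 changed it. Changing the filter, the intensity trend or the block left each difference itself unchanged, so those settings could not change a sign. They are counted among the 222. IGF1R Ssc.19009.1.S1_at and IGF2 Ssc.9365.3.S1_x_at kept theirs in all 20 settings, at 0.17 to 0.71 and -0.52 to -0.16. These are refits of the same arrays, and the IGF1R probe set entered the test through the Korean native pigs. The cause of the sign changes was not tested. With quantile normalisation IGF1 Ssc.16231.3.S1_a_at was at 0.0148 and IGF2 Ssc.9365.3.S1_a_at at -0.0044. With arrays centred on their median, IGF1 Ssc.16231.3.S1_a_at was at 0.018, IGF2R at 0.026 and IGFBP5 at 0.027. In bright arrays alone IGF2 Ssc.9365.3.S1_a_at was at -0.026, Ssc.9365.6.A1_x_at at 0.85, Ssc.9365.7.A1_x_at at 0.011 and IGF2R at 0.15. In dim arrays alone IGF1 Ssc.16231.3.S1_a_at was at 0.24, IGF2 Ssc.20525.1.S1_at at 0.065, Ssc.9365.2.S1_a_at at 0.25, Ssc.9365.5.S1_a_at at 0.047, IGFBP5 at 0.060, STAT5A at -0.11 and MAPK3 at -0.10. Without the 2 arrays of highest 3' to 5' ratio IGF1 Ssc.16231.1.S1_a_at was at 0.11 and Ssc.16231.3.S1_a_at at 0.21. Leaving out single arrays gave -0.32 to 0.00394 for IGF1 Ssc.16231.1.S1_a_at, -0.33 to 0.20 for Ssc.16231.3.S1_a_at, -0.27 to 0.091 for IGF2 Ssc.20525.1.S1_at, -0.29 to 0.62 for Ssc.9365.1.S1_at, -0.076 to 0.17 for Ssc.9365.3.S1_a_at and -0.32 to 0.082 for Ssc.9365.6.A1_x_at. It gave -0.14 to 0.057 for IGF2R, -0.36 to 0.19 for IGFBP5, -0.080 to 0.51 for GHR, -0.045 to 0.33 for MAPK3 and -0.047 to 0.30 for STAT5A. The dim minus bright difference was recomputed only for the 3 probe sets under 0.05 before adjustment. Its sign was kept in all 36 recomputed values, which is no independent support, since these probe sets were picked from the same values.

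Signal over background limits IGF1, IGF1R and IGFBP2, whose probe sets were near background on at least 1 array.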
